A study of Homo sapiens with 6 samples.

Results

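The 10 genes described here set how tumor cells meet the chemotherapy drugs used in small cell lung cancer (SCLC). They are SLFN11, TOP1, TOP2A, TOP2B, PARP1, MGMT, ERCC1, TDP1, ABCB1 and ABCC1, taken by symbol from the 62696 genes of the count files. TOP2A and TOP2B encode the type II topoisomerases that etoposide traps on DNA, and TOP1 encodes the type I enzyme trapped by topotecan and irinotecan. TDP1 removes trapped TOP1 from DNA ends, PARP1 senses DNA breaks and is the target of PARP inhibitors, ERCC1 takes part in the excision of cisplatin adducts, and MGMT reverses the alkylation made by temozolomide. SLFN11 blocks stressed replication forks, and SCLC cells that lack it are known to tolerate topoisomerase poisons, platinum and PARP inhibitors. ABCB1 (P-glycoprotein) and ABCC1 (MRP1) pump drugs out of cells.

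RNA-Seq was performed in DMS53, an established NE (neuroendocrine) SCLC cell line, to ask whether ONECUT2 (OC2) changes its cell state. A total of 3 libraries came from control cells transduced with an empty lentiviral vector that carries mGFP, and 3 came from OC2-OE cells transduced with a vector for constitutive expression of mGFP-tagged human OC2. Both groups were selected with puromycin and grew in the same medium, and no chemotherapy drug is named for either, so these are levels in cells outside treatment. The sources used here do not say whether a group was a pool or a clone, or which promoter drives the vector. The libraries of a group were described as independent experiments, but the labels do not name separate transductions, and p-values then measure the spread between these libraries, which may be technical.

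The libraries held between 16533284 and 19099337 counted read pairs. ONECUT2 (ENSG00000119547.6), which checks the labels, had 1271 counts over the control libraries and 215647 over the OC2-OE libraries, which is 7.32 on the log2 scale (standard error 0.028, adjusted p = 1.95e-158, edgeR). Of 6 NE markers examined, 5 were lower and 1 (CHGA, named after its value was seen) was higher (28.7% and 27.8% of all tested genes). The summed level of the 6 was 1135 to 1172 CPM (counts scaled to the library size and by edgeR's TMM method) in control and 632 to 649 CPM in OC2-OE libraries. Of these markers, GRP, which encodes gastrin-releasing peptide, fell by 4.41 and INSM1, a NE transcription factor, fell by 1.93 on the log2 scale, and NCAM1 went from 164 to 41.2 CPM. CHGA rose by 1.06 on the log2 scale. SYP and CHGB, also named after their values were seen, fell by 0.44 and 0.14. Of 9 markers of blood, endothelial and stromal cells, 6 had too few counts for the test, among them CD3E, named after its value was seen, which had none. Their summed level was 3.14 to 3.75 CPM in control and 5.01 to 5.42 CPM in OC2-OE libraries, and PDGFRB was the single marker that passed the test, from 8 to 49 counts.

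In OC2-OE cells, the gene for the etoposide target TOP2A fell 4.90-fold, those for TOP1 and TDP1 fell 1.64-fold and 1.63-fold, and PARP1 fell 1.24-fold. The transporter gene ABCC1 rose 1.59-fold, while the rises of ABCB1 and SLFN11 were 1.18-fold and 1.15-fold. TOP2B and ERCC1 did not pass the test, and MGMT had no count in any library. Of the 9 genes with enough counts to be tested, 3 were thus higher and 4 lower at an adjusted p under 0.001, the threshold of the study. Over all 17307 genes tested, 56.5% were called at this threshold, 27.8% higher and 28.7% lower in OC2-OE cells, so a call by itself sets none of the 9 apart. The groups did not overlap for 8 of the 9, against 73.2% of all tested genes. The median log2 fold change of the 9 genes was 0.03, and that of all tested genes was 0.01.

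**Figure D1:**
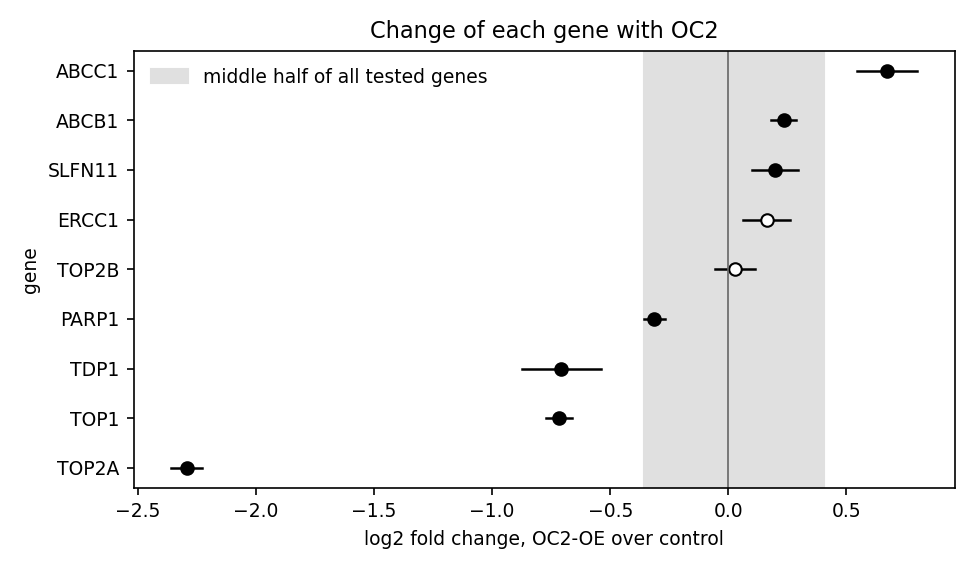
Log2 fold change of each tested gene (vertical axis), OC2-OE over control, with its 95% interval as a line. Filled points had an adjusted p under 0.001, open points did not, and the grey band runs between the quartiles of all 17307 tested genes, -0.36 and 0.40. TOP2A lies far to the left at -2.29, TDP1, TOP1 and ABCC1 lie outside the band and the other 5 inside it.

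TOP2A (ENSG00000131747.15) lies on chromosome 17 of GRCh38 from 40388525 to 40417896, on the minus strand. Topoisomerase IIα is made by dividing cells, in which it untangles replicated chromosomes, and its gene is known to be transcribed in late S and G2 phase. The level of TOP2A was 319, 294 and 293 CPM in control replicates 1, 2 and 3 and 61.1, 60.5 and 63.6 CPM in the OC2-OE replicates. Every OC2-OE library was far below every control library. The log2 fold change was -2.29 (standard error 0.033), with an adjusted p of 6.07e-86 by the quasi-likelihood test of edgeR, and 3.87% of tested genes had a larger absolute change. In bulk RNA, fewer cells that express a gene and less RNA per cell cannot be told apart.

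Other genes of the G2/M phase were lower as well. Of 12 such genes, a list that does not hold TOP2A, 11 were lower and 0 higher (28.7% and 27.8% of all tested genes), and the median of their log2 fold changes was -2.25. PLK1, a mitotic kinase, fell by 2.75 on the log2 scale, CENPF, a kinetochore protein, fell by 2.33 and BIRC5 (survivin) fell by 2.29. The gene that did not pass was NUSAP1, named here after its value was seen, of whose exon bases 81.4% are shared with another gene on the same strand, which makes its 54 and 35 counts uncertain. The summed level of the list was 2074 to 2140 CPM in control and 453 to 464 CPM in OC2-OE libraries. Set against that sum, of which it is no part, the level of TOP2A was 14.3% ± 0.504 (SD, n = 3) as large in control and 13.5% ± 0.276 (SD, n = 3) in OC2-OE libraries. This small difference had a two-sided exact permutation p of 0.1, the smallest that 3 against 3 libraries can give. The part of the G2/M genes in the fall of TOP2A was not tested.

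The promoter of TOP2A is shown with those of CENPF and PLK1, since their RNAs fell together. Each is the 250 bases before the RefSeq start on GRCh38.p14, written 5′ to 3′ on the gene's own strand. Capitals mark the CCAAT box (CCAAT, or ATTGG on the other strand) and the cell cycle homology region, or CHR (TTTGAA or TTCGAA, on either strand). The windows are chr17:40417897-40418146 (minus strand), chr1:214602945-214603194 (plus strand) and chr16:23678639-23678888 (plus strand).
TOP2A: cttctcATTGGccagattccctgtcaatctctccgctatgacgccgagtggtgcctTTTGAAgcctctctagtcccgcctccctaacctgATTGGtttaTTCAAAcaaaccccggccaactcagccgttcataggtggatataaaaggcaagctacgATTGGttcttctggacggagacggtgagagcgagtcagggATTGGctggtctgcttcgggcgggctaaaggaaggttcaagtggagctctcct
CENPF: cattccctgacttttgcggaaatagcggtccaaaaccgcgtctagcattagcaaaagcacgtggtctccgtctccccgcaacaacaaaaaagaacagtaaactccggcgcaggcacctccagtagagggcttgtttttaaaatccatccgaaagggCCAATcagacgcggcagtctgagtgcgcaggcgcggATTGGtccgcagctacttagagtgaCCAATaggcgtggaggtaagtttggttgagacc
PLK1: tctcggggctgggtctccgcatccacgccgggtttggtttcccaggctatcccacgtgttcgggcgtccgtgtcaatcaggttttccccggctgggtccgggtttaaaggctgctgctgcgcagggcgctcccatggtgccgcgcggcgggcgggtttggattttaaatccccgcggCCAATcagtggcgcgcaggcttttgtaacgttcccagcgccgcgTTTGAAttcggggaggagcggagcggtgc

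TOP2A held 4 CCAAT boxes, beginning 244, 160, 93 and 53 bases before the start, and 2 CHR letter matches, at 194 and 151 bases. Of 35116 RefSeq promoter windows of this length, 0.874% held 4 or more CCAAT boxes, 32.0% held at least 1, and 14.3% held a CHR match. CENPF had 3 CCAAT boxes and no CHR match, and PLK1 had 1 CCAAT box with a CHR match 29 bases before the start. Of the 12 G2/M genes, 9 had a window in the table. All 9 had a CCAAT box in at least 1 of their windows, and 5 had a CHR match. Among the 10 chemotherapy genes, 9 were matched, of which 5 had a CCAAT box and 4 a CHR match in at least 1 window. TOP2B, ERCC1 and ABCB1 had several windows, with a CCAAT box in only 1 window of each gene. The shares of 32.0% and 14.3% are per window, so they are no baseline for these counts per gene. The core letters bound by ONECUT factors (ATTGAT, both strands) were in 5.58% of all windows and in no window of the 9 matched genes, which says only that these letters are not in these 250 bases. A match of letters is a description and not a bound site.

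TOP2B (ENSG00000077097.17; chromosome 3, 25597978 to 25664909, minus strand) encodes topoisomerase IIβ, the form that cells also keep when they do not divide. Its level was 68.9, 67.5 and 66.0 CPM in control replicates and 71.4, 70.2 and 64.8 CPM in OC2-OE replicates. The groups overlapped, with OC2-OE replicate 3 below all control libraries. The log2 fold change was 0.03 with a 95% interval of -0.06 to 0.11 (adjusted p = 0.566, edgeR), so a change of the size seen for TOP2A lies outside the interval. Within each library, the ratio of TOP2A to TOP2B in TPM (counts per gene length, scaled to the same sum in each library) was 13.6, 12.8 and 13.01 in control and 2.50, 2.52 and 2.87 in OC2-OE libraries. The balance of the genes for the type II enzymes was thus lower in every OC2-OE library than in every control library (two-sided exact permutation p = 0.1, the smallest possible). The size of the ratio depends on the gene length used. With the longest principal transcript, 5389 bases for TOP2B instead of 18645 bases over all its exons, it was 4.19 ± 0.129 (SD, n = 3) in control and 0.842 ± 0.0664 (SD, n = 3) in OC2-OE cells. This length was chosen after the data had been seen.

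TOP1 (ENSG00000198900.7; chromosome 20, 41028822 to 41124487, plus strand) encodes the enzyme that nicks a single DNA strand to relieve torsion. TOP1 was measured at 276, 285 and 284 CPM in control replicates and at 169, 176 and 169 CPM in OC2-OE replicates, with no overlap. The log2 fold change was -0.72 (standard error 0.027, adjusted p = 2.75e-49, edgeR). TDP1 (ENSG00000042088.14; chromosome 14, 89954939 to 90044764, plus strand), the phosphodiesterase that frees DNA ends from stalled TOP1, was lower too. It went from 19.3, 18.5 and 19.2 CPM to 11.6, 10.3 and 12.95 CPM, or -0.71 on the log2 scale (standard error 0.085, adjusted p = 7.19e-13, edgeR). All OC2-OE libraries were below all control libraries in both genes. The ratio of TOP1 to TDP1 in TPM was 9.12 ± 0.366 (SD, n = 3) in control and 9.15 ± 1.24 (SD, n = 3) in OC2-OE libraries, with a two-sided exact permutation p of 1.

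Of 5 other genes for topoisomerases and the removal of their adducts, 3 were lower and 1 higher, where 56.5% of all tested genes were called. TOP3A, which encodes a type IA enzyme, fell by 0.31 on the log2 scale, and SPRTN, a protease that digests proteins crosslinked to DNA, fell by 0.42. TDP2, which removes trapped type II enzymes, fell by 0.28, from 77.8 ± 0.889 to 64.0 ± 3.70 CPM (SD, n = 3). TOP1MT, the mitochondrial type I enzyme, was higher by 0.46, and TOP3B did not pass (log2 fold change 0.11, adjusted p = 0.191, edgeR).

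**Figure D2:**
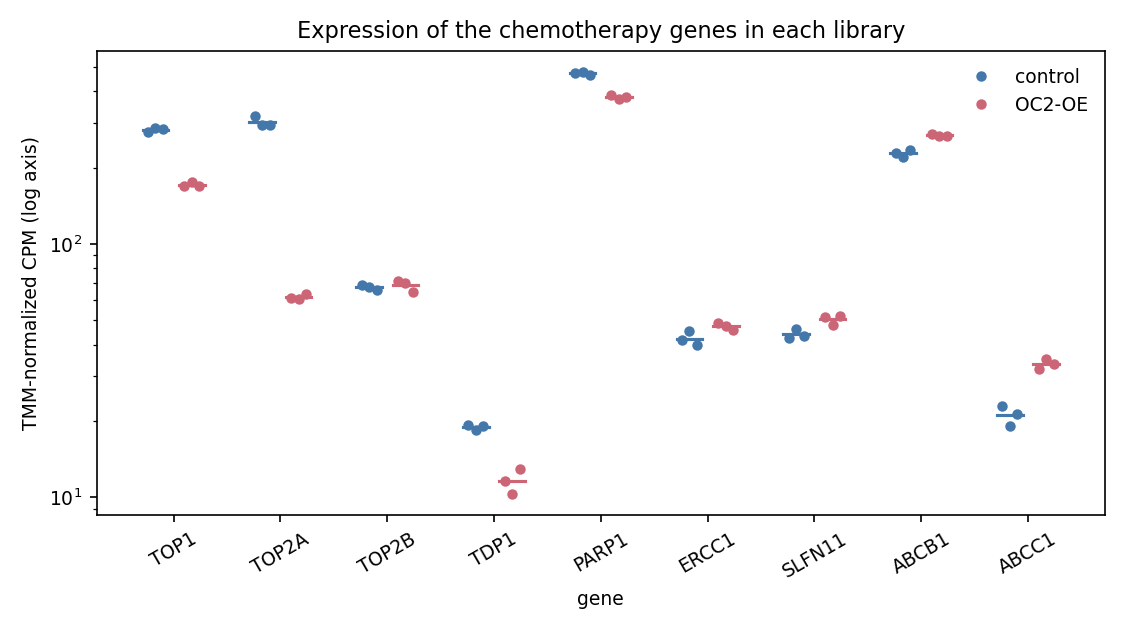
Expression of the 9 detected genes (horizontal axis) in TMM-normalized CPM on a log axis, each point a library and each bar the mean of 3 libraries. Control points lie above OC2-OE points for TOP1, TOP2A, TDP1 and PARP1 and below them for ERCC1, SLFN11, ABCB1 and ABCC1, while those of TOP2B overlap.

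PARP1 (ENSG00000143799.14; chromosome 1, 226360210 to 226408154, minus strand) had the most counts of the 10 genes, 24378 in control and 20771 in OC2-OE libraries. Its level was 472, 477 and 466 CPM in control replicates and 386, 371 and 381 CPM in OC2-OE replicates. The groups did not overlap, and the log2 fold change was -0.31 (standard error 0.023, adjusted p = 3.19e-25, edgeR). With this depth a small change was measured precisely, and 57.1% of tested genes changed more.

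Of 9 genes of single-strand break repair that work with or beside PARP1, 2 were higher, 1 was lower and 6 did not pass, where 56.5% of all tested genes were called. XRCC1, the scaffold that PARP1 recruits to breaks, fell by 0.64 on the log2 scale, from 76.2 ± 3.11 to 49.0 ± 0.331 CPM (SD, n = 3), with 8.16% of its exon bases shared with another gene of the same strand. APTX, an end-processing enzyme, rose by 0.20. The median of the list was 0.09 on the log2 scale, and its summed level was 394 to 405 CPM in control and 392 to 398 CPM in OC2-OE libraries, ranges that overlap.

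ERCC1 (ENSG00000012061.16; chromosome 19, 45407334 to 45478828, minus strand) encodes the partner of the XPF nuclease. Its level was 41.8, 45.3 and 39.7 CPM in control and 48.5, 47.6 and 45.8 CPM in OC2-OE replicates. All OC2-OE libraries were above all control libraries, but OC2-OE replicate 3 only just above control replicate 2. The log2 fold change of 0.16 (95% interval 0.06 to 0.26) did not pass 0.001 (adjusted p = 0.00354, edgeR). It passed with library size alone (0.21, adjusted p = 0.000153), with upper-quartile scaling (0.20, adjusted p = 0.000243) and without control replicate 2 (0.21, adjusted p = 0.000773), and over 15 alternatives its adjusted p from edgeR, DESeq2 or limma ran from 0.000153 to 0.0524. Of its exon bases, 28.6% lie opposite POLR1G, which the strand-aware counting keeps apart.

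Of 11 genes of nucleotide excision repair, the pathway of ERCC1, 3 were higher and 4 lower, shares near the 27.8% and 28.7% of all tested genes, and their median was 0.05 on the log2 scale. ERCC2, a helicase of TFIIH, and the damage recognition genes XPA and XPC rose by 0.57, 0.56 and 0.52 on the log2 scale. ERCC4, which encodes XPF and is named here after its value was seen, went the other way from ERCC1, at -0.49 on the log2 scale (standard error 0.062, adjusted p = 8.65e-12, edgeR). ERCC5, also named after its value was seen, shares 33.0% of its exon bases with a readthrough gene, and its 120 and 140 counts are uncertain for that reason.

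MGMT (ENSG00000170430.10; chromosome 10, 129467190 to 129770983, plus strand) had 0 counts in each of the 6 libraries, of 106535300 counts in all. A count of 0 allows a level of up to 0.0580 CPM in control and 0.0547 CPM in OC2-OE cells (3 counts over the libraries of a group), which covers counting error only. No comparison between the groups was possible. Of its exon bases, 7.58% lie in another gene of the same strand, which also had 0 counts. The promoter of MGMT is a CpG island whose methylation is known to silence the gene in tumors, and methylation was not measured here. Its 250 bases before the RefSeq start (chr10:129466991-129467240, plus strand, GRCh38.p14) are shown with each CpG in capitals.
MGMT: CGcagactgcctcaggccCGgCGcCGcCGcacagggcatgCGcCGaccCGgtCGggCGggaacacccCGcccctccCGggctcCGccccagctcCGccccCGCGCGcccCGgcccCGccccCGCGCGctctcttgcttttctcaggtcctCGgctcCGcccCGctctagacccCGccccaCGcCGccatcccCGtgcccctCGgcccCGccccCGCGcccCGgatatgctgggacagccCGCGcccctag

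This window held 36 CpG sites and 80.4% G and C, where 95.1% of RefSeq promoter windows held fewer CpG sites and the median was 11. Of 8 other genes of alkylation repair and mismatch repair, 3 were lower, 0 were higher and 5 did not pass, where 56.5% of all tested genes were called. ALKBH3, a demethylase, and MPG, a glycosylase for alkylated bases, fell by 0.64 and 0.27 on the log2 scale.

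SLFN11 (ENSG00000172716.17; chromosome 17, 35350305 to 35373701, minus strand) was expressed in every library. Its level was 42.5, 46.1 and 43.4 CPM in control replicates and 51.4, 47.8 and 51.9 CPM in OC2-OE replicates. The groups did not overlap, though OC2-OE replicate 2 and control replicate 2 were close. The log2 fold change was 0.20 (95% interval 0.10 to 0.30) with an adjusted p of 0.000281 (edgeR). This call rests on each of several libraries. It was lost without control replicate 1 (0.17, adjusted p = 0.00412), without control replicate 3 (0.19, adjusted p = 0.00203), without OC2-OE replicate 1 (0.19, adjusted p = 0.00287) and without OC2-OE replicate 3 (0.18, adjusted p = 0.00356), and with the Wald test of DESeq2 (0.20, adjusted p = 0.00424). Over 15 alternatives its adjusted p from edgeR, DESeq2 or limma ran from 7.51e-06 to 0.00424, and its log2 fold change stayed above 0 in each.

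SLFN11 is known to be induced by interferon and to be silenced by EZH2 in SCLC. Of 8 genes of interferon signalling, 7 were higher and 0 lower (27.8% and 28.7% of all tested genes), with a median log2 fold change of 0.92, and their summed level was 282 to 294 CPM in control and 489 to 499 CPM in OC2-OE libraries. STAT2, IRF1 and IFIT1 rose by 1.37, 1.18 and 1.16 on the log2 scale. EZH2, the polycomb methyltransferase, fell by 0.46, from 46.2 ± 1.63 to 33.7 ± 1.68 CPM (SD, n = 3), and FLI1, an ETS factor known to drive SLFN11 in other tumors, fell by 1.76, from 125 to 39 counts. The part of any of these genes in the level of SLFN11 was not tested. The SLFN11 promoter is shown (chr17:35373622-35373871, minus strand, GRCh38.p14, 250 bases before the RefSeq start) because the gene is the marker of drug response in the group. Its CCAAT box, in capitals, begins 86 bases before the start.
SLFN11: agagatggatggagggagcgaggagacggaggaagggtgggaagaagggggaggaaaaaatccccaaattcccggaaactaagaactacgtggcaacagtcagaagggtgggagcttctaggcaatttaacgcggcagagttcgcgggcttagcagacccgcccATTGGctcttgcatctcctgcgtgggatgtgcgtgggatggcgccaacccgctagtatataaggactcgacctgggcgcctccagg

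Of 5 other genes of the Schlafen family, 4 could be tested, of which 1 was higher, 1 was lower and 2 did not pass. Of all tested genes, 27.8% were higher and 28.7% lower. SLFN5 rose from 19.4 ± 1.52 to 37.8 ± 0.438 CPM (SD, n = 3), 0.96 on the log2 scale, and SLFN13 fell by 0.64, from 123 ± 7.14 to 79.0 ± 1.51 CPM (SD, n = 3). SLFN12 and SLFN12L did not pass (log2 fold changes 0.14 and 0.30), and SLFN14, with 2 and 1 counts, was not tested. The Schlafen genes lie beside each other and are related in sequence, so reads that fit several of them can be lost. The ratio of SLFN11 to SLFN13 in TPM was 0.562 ± 0.0513 (SD, n = 3) in control and 0.995 ± 0.0251 (SD, n = 3) in OC2-OE libraries (two-sided exact permutation p = 0.1, the smallest possible).

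ABCB1 (ENSG00000085563.15; chromosome 7, 87503017 to 87713323, minus strand) was already abundant in control cells, at 229, 220 and 234 CPM. The OC2-OE replicates had 271, 267 and 266 CPM, all above the control libraries. The log2 fold change was 0.23 (standard error 0.026, adjusted p = 4.14e-14, edgeR). ABCC1 (ENSG00000103222.20; chromosome 16, 15949138 to 16143257, plus strand) was at 22.9, 19.1 and 21.3 CPM in control replicates and at 32.2, 35.2 and 33.7 CPM in OC2-OE replicates, 0.67 on the log2 scale (standard error 0.065, adjusted p = 1.73e-17, edgeR). Both efflux pumps were thus higher, ABCC1 by the larger factor and ABCB1 from the higher level. The ratio of ABCB1 to ABCC1 in TPM was 14.8 ± 1.06 (SD, n = 3) in control and 10.8 ± 0.570 (SD, n = 3) in OC2-OE libraries (two-sided exact permutation p = 0.1).

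Of 12 other genes for drug efflux and platinum transport, 11 could be tested, of which 7 were higher, 1 was lower and 3 did not pass (27.8% of all tested genes were higher and 28.7% lower), with a median log2 fold change of 0.48. ABCC5, a pump for nucleotide analogs, rose from 24.3 ± 1.04 to 60.1 ± 0.979 CPM (SD, n = 3), 1.31 on the log2 scale. ABCC2 rose by 1.18, from 84 to 202 counts. ABCB4, the neighbour and close paralog of ABCB1, fell by 1.31, from 235 to 100 counts, and reads that the paralogs share can be lost. ABCG2 (BCRP) was too low to be tested, with 3 counts in control and 32 in OC2-OE libraries, a ratio of 10.1 (95% counting interval 3.15 to 51.4). The copper transporters ATP7A and ATP7B, which can carry platinum out of cells, rose by 0.59 and 0.48, while SLC31A1, through which copper and cisplatin enter, did not pass (log2 fold change 0.02, adjusted p = 0.607, edgeR). These 4 genes were named after their values had been seen.

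Levels of different genes were compared per length in TPM. With all exons of a gene as its length, TOP2A stood first in control cells at 194 ± 9.38 TPM (SD, n = 3), before ABCB1 at 145 ± 4.99, TOP1 at 113 ± 2.13 and PARP1 at 105 ± 0.798 TPM. ERCC1 at 30.9 ± 1.92 and SLFN11 at 30.01 ± 1.19 TPM followed and were not separated by their libraries. TOP2B at 14.8 ± 0.292, TDP1 at 12.4 ± 0.348 and ABCC1 at 9.84 ± 0.913 TPM came last of the detected genes. In OC2-OE cells ABCB1 stood first at 175 ± 1.64 TPM, and TOP2A, at 40.6 ± 1.08 TPM, stood below it and below PARP1 at 86.5 ± 1.66 and TOP1 at 71.0 ± 1.76 TPM. ERCC1 (35.6 ± 1.06 TPM) and SLFN11 (35.3 ± 1.53 TPM) were again not separated, nor were ABCC1 (16.2 ± 0.726 TPM) and TOP2B (15.5 ± 0.792 TPM).

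The order at the top depended on the length. PARP1 has 18399 bases over all exons and 3958 in its longest principal transcript. With principal transcripts, PARP1 stood first in both groups, at 292 ± 2.58 TPM in control and 244 ± 4.72 TPM in OC2-OE cells (SD, n = 3). TOP1 at 184 ± 3.10 TPM was then above TOP2A at 129 ± 6.48 TPM in control cells. In OC2-OE cells TOP2A was at 27.3 ± 0.747 TPM, below TOP2B at 32.5 ± 1.64 TPM. Under both lengths ABCB1 exceeded ABCC1 and SLFN11 in every library, and in OC2-OE cells TOP2A was below TOP1, PARP1 and ABCB1.

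**Figure D3:**
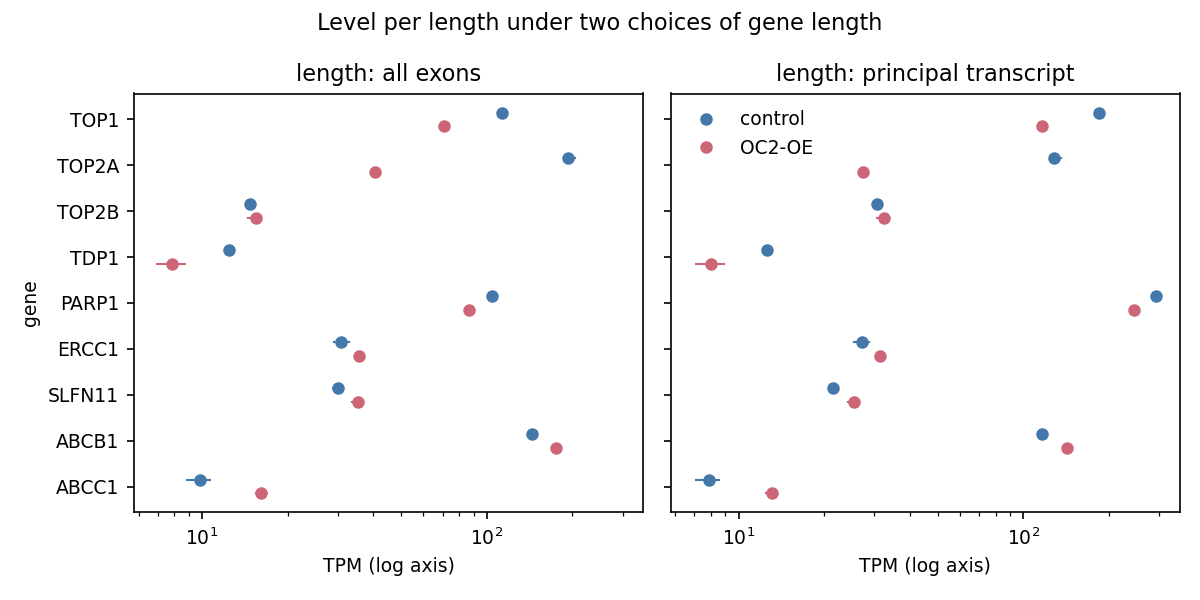
Level of each detected gene (vertical axis) in TPM on a log axis, with the mean of 3 libraries as a point and the lowest to highest library as a line. The left panel uses all exons and the right panel the longest principal transcript. PARP1 moves from 105 to 292 TPM in control cells, and TOP2A lies below TOP1, PARP1 and ABCB1 in OC2-OE cells in both panels.

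TOP2A had the largest change of the 10 genes, and the genes whose log2 CPM followed it most closely over the 6 libraries were TRAF4, MRTFB and RAB3B, each with a Pearson correlation of 1.00 to 2 decimals. Such a likeness was common, as 1588 of the tested genes had a correlation above 0.99 with TOP2A over these 6 libraries, which form 2 groups that differ in most genes. TRAF4 changed by -0.78, MRTFB by -1.33 and RAB3B by -1.26 on the log2 scale.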

How the data were processed

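RNA-Seq libraries were stranded and poly(A)-selected. Per the submitters' processing notes and the file headers, the authors aligned reads with STAR 2.7.9a to GRCh38 and counted read pairs on the exons of GENCODE release 42 with featureCounts 1.6.0, using the strand. The deposited values are raw counts of 62696 genes, with no normalization or filter, and the deposited files also give the exon bases of each gene.

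A symbol was found for 62672 of the Ensembl identifiers. Counts were tested in R 4.3.3 with edgeR 4.0.16 (TMM, filterByExpr, robust quasi-likelihood test, group as the only term) over 17307 genes, with Benjamini-Hochberg adjustment over all of them and a threshold of 0.001. Standard errors were derived from the fold change and its F statistic, and 95% intervals use the normal distribution. TPM was computed from counts and exon bases, or from the longest principal transcript of GENCODE release 29 (an alternative added after the data had been seen). In this alternative, 20296 genes, the 10 among them, had a principal transcript, and all other genes kept their exon bases. Promoter windows came from RefSeq (GRCh38.p14). The fit was tested on simulated data in which far fewer genes changed than were called here.

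The genes, the lists and the tests were chosen with earlier results of these data known. The genes named are the 10, ONECUT2, every gene of lists of up to 5, the 3 called genes with the largest absolute change on longer lists and the 3 genes most correlated with the called gene that changed most. Genes named outside this rule are marked as such, and some that it names are not reported here. Alternatives were DESeq2 1.42.0 size factors, library size, upper quartile, the DESeq2 Wald test, limma 3.58.1 voom, no filter, at least 10 counts in every library, a replicate block, each library left out, ONECUT2 left out, an adjusted p under 0.05 and a minimum absolute log2 fold change of 1.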

Additional observations from a re-analysis of the deposited data

How the results depend on the processing

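TOP1, TOP2A, PARP1, TDP1, ABCB1, ABCC1 and TOP2B kept their direction and their side of the threshold in all 15 alternatives run for each gene, which do not include the minimum fold change. The number called among the 9 tested genes was 6 to 8, except that with a minimum absolute log2 fold change of 1 as well it was 1 (TOP2A), which ends the calls of TOP1, PARP1, TDP1, ABCB1, ABCC1 and SLFN11, and over all genes 2999. For SLFN11 the call was lost with the DESeq2 Wald test at 0.20 on the log2 scale and when any single one of 4 of the 6 libraries was left out, the value lying between 0.17 and 0.24 when single libraries were dropped. For ERCC1 a call was gained with library size only (0.21) and upper-quartile scaling (0.20), and without control replicate 2, the value lying between 0.12 and 0.21 when single libraries were dropped. With principal transcript lengths, the control ratio was 4.19 for TOP2A to TOP2B and 0.698 for TOP2A to TOP1 (1.71 with all exons). The cause of these changes was not tested, and genes of the other lists were not run under the alternatives. The labels share replicate numbers between groups. Deviations of same-numbered libraries correlated at 0.00765 to 0.0375, and those of differently numbered libraries at -0.0348 to 0.0102. Libraries of the same group differed by only 1.32 to 2.07 times the sampling variance. With so little beyond sampling noise, these correlations cannot tell whether same-numbered libraries share a culture or a batch. With the replicate block, 9642 genes and 7 of the 9 were called. Depth limits MGMT, ABCG2 and SLFN14.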
